A study of Mus musculus with 37 samples.

Results

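The genes described here are 10 genes of the postsynaptic density, Shank1, Shank2, Shank3, Dlg2, Dlg3, Dlg4, Homer1, Homer2, Homer3 and Psd, taken by their symbols from a table of 29955 gene symbols. All 10 were found once and all 10 passed the filter on low values used for the tests. The table holds FPKM (fragments per kilobase of transcript, scaled to a library's mapped fragments) for 8 libraries of RNA from mouse cerebellum in the C57BL/6 strain. The WT libraries came from Mll4f/f mice, which carry the floxed gene, and the KO libraries from Mll4 BSKO mice, in which Mll4 is deleted in the brain; the labels name no Cre line. At 1 month of age there were 3 WT and 3 KO libraries, and at 4 months there was 1 library of each genotype. Separate or pooled animals are not stated in the labels, so the p-values reflect library-to-library spread alone, which could be technical. The study asks how loss of MLL4, a methyltransferase of histone H3 lysine 4, alters gene expression in the cerebellum.

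The postsynaptic density is a protein layer beneath the membrane of excitatory synapses, where scaffold proteins tie glutamate receptors to signalling enzymes and to the actin skeleton. Proteins of the Dlg family, which include PSD-95 (Dlg4), PSD-93 (Dlg2) and SAP102 (Dlg3), hold receptors and channels near the membrane, and Shank proteins form a deeper layer that is linked to them through Dlgap adaptors. Homer proteins connect Shank to metabotropic glutamate receptors and to the inositol trisphosphate receptor, and Homer3 is known as the form of cerebellar Purkinje cells. Psd is not a scaffold: it encodes an exchange factor for the small GTPase ARF6 that is found at the postsynaptic density.

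Several libraries stood apart. Across 7315 genes averaging 10 FPKM or more, replicates 1 and 2 of each genotype had a median log2 difference of 0.08. The library labelled KO replicate 3 lay 0.25 from each of the other 1-month KO libraries and 0.16 and 0.15 from WT replicates 1 and 2. WT replicate 3 lay 0.19 and 0.18 from WT replicates 1 and 2. The 4-month WT library lay 0.397, 0.378 and 0.413 from WT replicates 1, 2 and 3 of 1 month. The library labelled KO at 4 months lay 0.345, 0.344 and 0.369 from them. The 4-month WT library also had the largest share of FPKM in symbols of small RNAs, 48.2%. Age and other features of that single library cannot be told apart. Mll2, which was read as the targeted gene Kmt2d, had 18.2, 19.9 and 22.3 FPKM in the 1-month WT libraries and 12.7 and 13.6 in KO replicates 1 and 2. It had 23.5 FPKM in the library labelled KO replicate 3, above every WT library of that age, although FPKM over a whole gene need not show a deletion of some exons. At 4 months Mll2 had 46.6 FPKM in WT and 16.6 in the library labelled KO. Wbp7, read as Kmt2b, had 14.4, 14.9 and 15.1 FPKM in WT and 7.98, 8.28 and 13.7 in KO at 1 month.

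The library labelled KO at 4 months did not have the marker pattern of cerebellum. Its 8 granule neuron markers summed to 26.8 FPKM against 274 to 1507 in the other 7 libraries, with Gabra6 at 0.118 and Fat2 at 0.214. Its 7 Purkinje cell markers summed to 257.2 FPKM against 361.5 to 1756 elsewhere. Their median stood at -2.86 on the log2 scale relative to WT at 1 month. They were uneven, with Pcp2 at 0.544 FPKM, Car8 at 1.81, Calb1 at 26.6 and Rora at 27.45. Pcp4 held most of the sum, with 191.7 FPKM against 222.3 in the 4-month WT library. Its 6 forebrain markers summed to 181.7 FPKM against 10.07 to 81.3 elsewhere, where most of the sum was 6330527O06Rik, an older symbol of Lamp5. The cortical marker Tbr1 had 31.2 FPKM in it and at most 0.537 in any other library. Values of that library are therefore given as those of a library labelled KO, and tissue and genotype cannot be told apart in it. Marker lists also differed between genotypes at 1 month. Relative to the WT mean of that age, the median granule neuron marker stood at -2.62, -2.69 and -0.56 on the log2 scale in KO replicates 1, 2 and 3 as labelled, and the median Purkinje cell marker at -2.20, -2.22 and -0.70. The median brainstem marker stood at 2.20, 2.30 and 1.65, and the median of 7 pan-neuronal genes at 0.13, 0.02 and -0.06. The brainstem markers were low and uneven in WT replicates 1, 2 and 3, with medians of -0.42, -0.41 and 0.81. The 12 markers summed to 16.1, 17.1 and 55.9 FPKM there, and 11, 11 and 2 of them were under 1 FPKM. In KO they summed to 98.3 to 168.1 FPKM. The median microglia marker stood at 1.06, 1.05 and 1.45, and the 8 microglia markers summed to 52.6 to 69.0 FPKM in WT and 136.9 to 179.9 in KO. The median oligodendrocyte marker stood at 0.87, 0.85 and 0.10, with sums of 3038 to 5954 FPKM over 8 markers in WT and 4108 to 6944 in KO, which overlapped. In bulk tissue, fewer cells of a type and less RNA per cell cannot be told apart, and the part of cell composition in the results below was not tested.

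In WT cerebellum at 1 month the scaffold genes were all expressed, over a range of about an order of magnitude. Dlg4 had the highest mean level, 67.3 FPKM ± 4.30 (SD, n = 3), and Homer2 the lowest, 5.77 ± 3.62. Homer3 followed Dlg4 with 66.2 ± 10.3, then Dlg2 with 58.6 ± 1.75, and the ranges of these 3 genes overlapped between neighbours. Shank1, Shank2 and Shank3 had 37.8 ± 9.41, 35.3 ± 0.493 and 31.0 ± 3.12 FPKM. They were followed by Psd with 27.1 ± 3.34, Dlg3 with 22.2 ± 1.20 and Homer1 with 21.6 ± 3.06. Neighbours in this order whose WT ranges did not overlap were Dlg2 and Shank1, Shank2 and Shank3, and Homer1 and Homer2. Homer3 was thus about as abundant as the PSD-95 gene in these WT libraries, whereas Homer1 was lower.

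**Figure D1:**
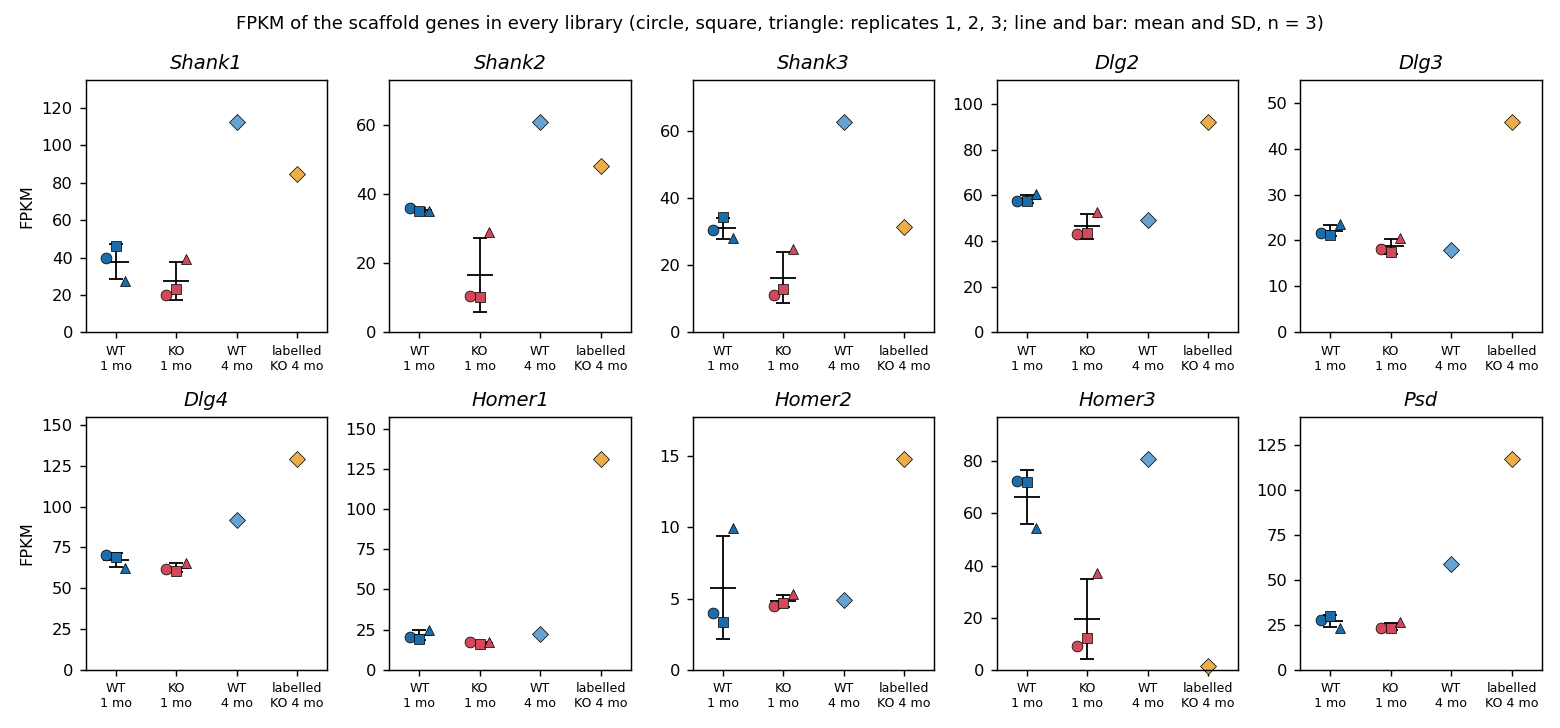
FPKM of each of the 10 genes (y axis, 1 panel per gene, each with its own scale from 0) in the 4 groups of libraries; circles, squares and triangles are replicates 1, 2 and 3, diamonds are the single 4-month libraries, and lines with bars give mean and SD of 3 libraries. Homer3 stands at 80.8 FPKM in the 4-month WT library and at 1.32 in its counterpart labelled KO, while Homer1 stands at 131.2 there, and the triangle of KO lies above both other KO libraries in all 10 panels.

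In the comparison of KO with WT at 1 month, all 10 genes had a negative log2 fold change, but none passed the adjusted threshold. Fold changes are on the log2(FPKM + 1) scale, which understates changes of low genes, and were tested with limma at a Benjamini-Hochberg adjusted p of 0.05 over 14847 genes. The background was low, since 0.0269% of all genes passed, and 55.2% of all genes had a negative value. The members' median was -0.33 and that of all genes -0.04. At an unadjusted p under 0.05, 5 members were lower and 0 higher, where 17.2% of all genes were lower and 14% higher. In 6 members (Shank2, Shank3, Dlg2, Dlg3, Homer1 and Homer3) every KO library lay below every WT library, which held for 20.5% of all genes, and in 0 members did every KO library lie above, which held for 15.2%.

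Homer3, whose product links metabotropic glutamate receptors to the inositol trisphosphate receptor, had the largest difference among the members. It had 72.2, 72.1 and 54.3 FPKM in WT, 8.93 and 12.1 in the first 2 KO libraries, while the one labelled KO replicate 3 had 37.0. All KO libraries were below all WT libraries, and the library labelled KO replicate 3 lay between the others and WT. The log2 fold change was -1.97 (SE 0.48, 95% interval -3.11 to -0.83), and the limma adjusted p was 0.0761. Homer1, the family member best known from forebrain neurons, had 20.4, 19.3 and 25.0 FPKM in WT and 17.1, 16.0 and 17.3 in KO. These groups did not overlap either, but the log2 fold change was small at -0.33 (SE 0.13, adjusted p 0.136 by limma). Homer2 had 4.01, 3.37 and 9.93 FPKM in WT and 4.47, 4.70 and 5.31 in KO. WT replicate 3 was the highest and the other WT libraries were the lowest, so the groups overlapped, and the log2 fold change was -0.10 with an interval from -0.89 to 0.70. Without WT replicate 3 it was 0.31, so Homer2 had no stable direction.

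The promoters of Homer1 and Homer3 are shown because their levels went furthest apart in the library with forebrain markers described above. The correlation of their levels was -0.66 over all libraries and 0.73 without that library. The windows run from 250 bases before to 50 after a transcript start in RefSeq on GRCm38.p6; the deposited table itself was made on mm9. Capitals mark TGACG (or CGTCA on the other strand), the core of the cAMP response element, and GGGCGG (or CCGCCC), the GC box bound by Sp1 and related factors, and in these windows no copies of the motifs overlap. The windows are chr13:93303507-93303806 on the plus strand for Homer1 and chr8:70282749-70283048 on the plus strand for Homer3.
Homer1: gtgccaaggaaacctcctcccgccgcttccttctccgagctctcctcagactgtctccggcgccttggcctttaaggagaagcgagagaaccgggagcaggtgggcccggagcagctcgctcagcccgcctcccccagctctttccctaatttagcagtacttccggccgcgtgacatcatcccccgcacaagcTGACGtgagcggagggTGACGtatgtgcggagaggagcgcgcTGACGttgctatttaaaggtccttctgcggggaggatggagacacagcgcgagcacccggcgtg
Homer3: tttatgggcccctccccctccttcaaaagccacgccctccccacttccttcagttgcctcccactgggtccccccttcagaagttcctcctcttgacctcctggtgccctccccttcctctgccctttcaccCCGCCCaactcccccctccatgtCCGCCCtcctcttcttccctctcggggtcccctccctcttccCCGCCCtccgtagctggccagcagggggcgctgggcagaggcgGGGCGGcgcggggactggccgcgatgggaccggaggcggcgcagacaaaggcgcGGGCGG
The Homer1 window holds 3 copies of TGACG, at 56, 40 and 14 bases before the start, and 0 copies of GGGCGG. The Homer3 window holds 0 copies of TGACG and 5 of GGGCGG, of which 3 are on the other strand. Their GC contents are 63.0% and 69.7%. Of 32817 windows of this length in the RefSeq table, 20.8% hold at least 1 copy of TGACG and 1.03% at least 3, and 35.6% hold at least 1 copy of GGGCGG and 10.7% at least 3. Windows were found for 8 of the 10 genes, and of all their windows the first of Homer1 was the one with more than 1 TGACG. More copies of the GC box than in the Homer3 window were found in 1 window of Homer2, with 8, some of them overlapping. The Shank3 window held 4 copies of the GC box, and the remaining windows of these genes held at most 2. These matches describe the letters of the windows and say nothing of binding.

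The Shank genes encode the large scaffolds of the deeper layer of the density. Shank2 had 35.9, 35.0 and 35.1 FPKM in WT, 10.6 and 10.1 in the first 2 KO libraries, while the one labelled KO replicate 3 had 29.0. The WT libraries were almost level, and all KO libraries lay below them. The log2 fold change was -1.21 (SE 0.37, 95% interval -2.10 to -0.32, limma adjusted p 0.0982). Shank3 had 30.5, 34.3 and 28.1 FPKM in WT and 11.1, 12.9 and 24.9 in KO. The groups again did not overlap, with a log2 fold change of -0.96 (SE 0.28, 95% interval -1.64 to -0.29, limma adjusted p 0.0938). Shank1 had 39.5, 46.2 and 27.6 FPKM in WT and 20.2, 22.9 and 39.0 in KO. Its groups overlapped, because the library labelled KO replicate 3 lay above the WT mean and WT replicate 3 was low. The log2 fold change was -0.48 with an interval from -1.16 to 0.21, and the limma adjusted p was 0.291.

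The membrane-associated guanylate kinases differed less. Dlg2 had 57.6, 57.5 and 60.6 FPKM in WT and 43.2, 43.5 and 52.6 in KO. The groups did not overlap, and the log2 fold change was -0.33 (SE 0.12, 95% interval -0.61 to -0.06, limma adjusted p 0.118). Dlg3, whose product SAP102 is prominent at young synapses, had 21.6, 21.3 and 23.5 FPKM in WT and 18.2, 17.5 and 20.6 in KO, with a log2 fold change of -0.23 and an interval from -0.49 to 0.03. Its groups also stood apart, by a small margin. Dlg4 had 70.5, 69.0 and 62.4 FPKM in WT and 61.6, 60.3 and 65.7 in KO. These groups overlapped, and the interval of the log2 fold change ran from -0.35 to 0.14. Psd had 27.8, 30.0 and 23.4 FPKM in WT and 23.0, 23.0 and 26.6 in KO, with an interval from -0.46 to 0.16. For Dlg4 and Psd the intervals with all 3 KO libraries leave room for a log2 change of no more than 0.46 in either direction. Without the library labelled KO replicate 3 the interval ran from -0.38 to 0.10 for Dlg4 and from -0.53 to 0.10 for Psd.

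**Figure D2:**
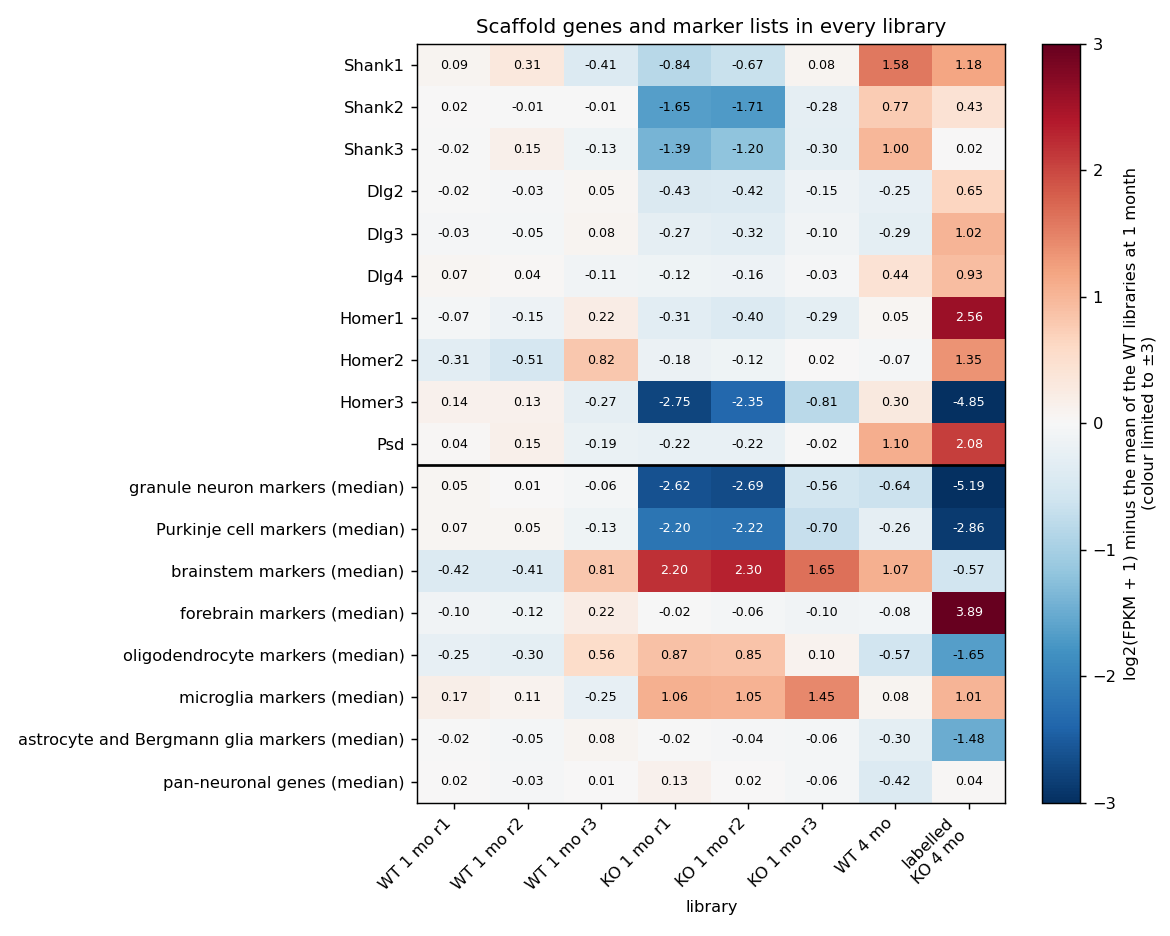
Colours and printed values give log2(FPKM + 1) minus the mean of the 3 WT libraries at 1 month, for each gene (rows above the line) and for the median of each marker list (rows below it), in the 8 libraries (columns). In KO replicate 1 Homer3 stands at -2.75, Shank2 at -1.65 and the granule neuron median at -2.62, whereas Dlg4 stands at -0.12 and the pan-neuronal median at 0.13.

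Over all genes the library labelled KO replicate 3 lay nearest to WT among the KO libraries. In 8 of the 10 members its log2 value lay between the WT mean and the nearer of KO replicates 1 and 2, as it did in 55.4% of all genes that were lower in both. The exceptions were Shank1 and Homer2, in which it lay above the WT mean. Homer3 stood at 13.5% and 18.2% of the WT mean FPKM in KO replicates 1 and 2 and at 55.9% in that library. Shank2 stood at 30.0%, 28.6% and 82.0%, and Shank3 at 35.9%, 41.7% and 80.4%. Without that library 4 of the 10 members passed the threshold, all lower, where 34.1% of 14765 genes passed and 19.9% passed as lower. The limma log2 fold changes were then -2.55 for Homer3 (adjusted p 0.00123), -1.68 for Shank2 (0.00059), -1.30 for Shank3 (0.00236) and -0.43 for Dlg2 (0.0164). Shank1 at -0.75 and Dlg3 at -0.30 had adjusted p of 0.051 and 0.0566 by limma and did not pass. Its granule and Purkinje cell marker medians were also the nearest to WT among the KO libraries, as given above. Its microglia median stood further from WT than in the other KO libraries, at 1.45. Gfap, 1 of 6 listed astrocyte and Bergmann glia genes, did so too. It had 300.6 FPKM against 152.9 and 153.7 in the others and 80.6, 83.2 and 87.4 in WT. The median of that list was -0.02, -0.04 and -0.06 in KO replicates 1, 2 and 3. Slc1a3 and Gdf10 went the other way and were nearer to WT in the library labelled KO replicate 3. Slc1a3 had 167.7 FPKM there against 79.1 and 74.4, and Gdf10 had 21.1 against 5.49 and 5.34. The oligodendrocyte median was nearer to WT, at 0.10.

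**Figure D3:**
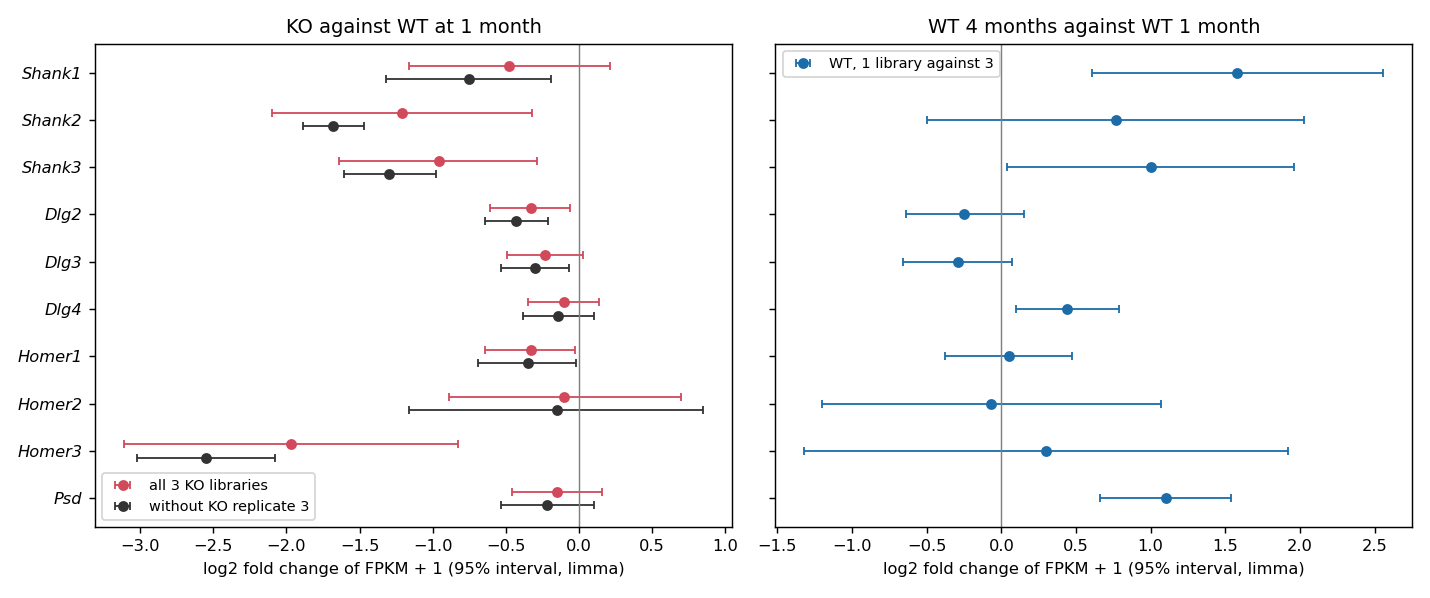
Log2 fold changes of FPKM + 1 with 95% intervals from limma (x axis) for the 10 genes (y axis); the left panel sets KO against WT at 1 month with all 3 KO libraries and without the library labelled KO replicate 3, and the right panel sets the single 4-month WT library against the 3 WT libraries at 1 month. On the left Homer3 lies at -1.97 and -2.55 and Dlg4 near 0, and on the right Shank1 lies at 1.58 and Psd at 1.10.

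In the comparison of ages within WT, Psd was higher in the 1 library of 4 months than in every library of 1 month. It had 27.8, 30.0 and 23.4 FPKM at 1 month and 58.8 at 4 months, with a log2 fold change of 1.10 (SE 0.18, 95% interval 0.66 to 1.54, limma adjusted p 0.0311). In this contrast 10.3% of 14918 genes passed, 3.74% as higher, and 1 library stands for 4 months, which was assumed to vary like the 1-month groups. With the 4 WT libraries alone the adjusted p of Psd was 0.0614, and without WT replicate 1 or 2 it was 0.0994 or 0.096. Without KO replicate 1 or 2, which enter through the shared spread, it was 0.0701 or 0.0716.

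Shank1 went from 39.5, 46.2 and 27.6 FPKM to 112.6, a larger difference than that of Psd, but it missed the threshold with a log2 fold change of 1.58 (SE 0.41, limma adjusted p 0.0564). Shank3 went from 30.5, 34.3 and 28.1 FPKM to 62.7, and its log2 fold change was 1.00 (SE 0.40, adjusted p 0.145 by limma). Shank2 went from 35.9, 35.0 and 35.1 FPKM to 60.8, with a log2 fold change of 0.77 and an interval from -0.50 to 2.03. All 3 Shank genes were thus higher in the 4-month WT library than in any WT library at 1 month. Dlg4 went from 70.5, 69.0 and 62.4 FPKM to 91.8, with a log2 fold change of 0.44 (SE 0.14, adjusted p 0.0944 by limma). Dlg2 and Dlg3 went the other way, to 49.2 and 17.8 FPKM, below every WT library at 1 month, with log2 fold changes of -0.25 and -0.29 whose intervals were -0.64 to 0.15 and -0.66 to 0.07.

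Among the Homer genes, Homer3 stood at 80.8 FPKM in the 4-month WT library, above the 1-month libraries, and its interval ran from -1.32 to 1.92. Homer1 at 22.2 and Homer2 at 4.93 FPKM lay within the range of the 1-month WT libraries. Of the 10 members, 6 were above all WT libraries at 1 month and 2 below them, where 29.4% of all genes were above and 47% below. The median of the members was 0.37 and that of all genes -0.12, the shift of the whole table against which these values stand. The median granule neuron marker stood at -0.64, the median pan-neuronal gene at -0.42 and the median brainstem marker at 1.07 in that library relative to WT at 1 month, and their part in these differences was not tested. Without the library labelled KO replicate 3, which enters through the shared spread, 5 members passed as higher, Shank1, Shank2, Shank3, Dlg4 and Psd, where 24.9% of 14884 genes passed and 9.41% passed as higher.

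The library labelled KO at 4 months differed from the 4-month WT library in several members, without replicates and therefore without a test. Homer3 had 80.8 FPKM in WT and 1.32 in the library labelled KO, a log2 difference of -5.14. Homer1 had 22.2 and 131.2 FPKM, a log2 difference of 2.51, and became the highest of the 10 members. Homer2 had 4.93 and 14.8 FPKM, a log2 difference of 1.41. The Homer genes were thus split in that library, with Homer3 below and both others above every other library.

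Dlg3 stood at 17.8 FPKM in the 4-month WT library and at 45.8 in its counterpart labelled KO (log2 difference 1.31). Dlg2 had 49.2 and 92.2, Psd 58.8 and 117.3, and Dlg4 91.8 and 129.1 FPKM, with log2 differences of 0.89, 0.98 and 0.49. The Shank genes were lower instead, Shank3 with 62.7 and 31.3 FPKM (-0.98), Shank1 with 112.6 and 84.9 (-0.40) and Shank2 with 60.8 and 48.1 (-0.33). At a log2 difference of at least 1, 3 members were higher, where 9.57% of 14791 genes were, and 1 was lower, where 11.2% were. The members' median was 0.69 and that of all genes -0.01. As given above, this library had forebrain markers and low levels of most cerebellar ones, and genotype and tissue cannot be told apart in it.

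The make-up of each family does not depend on how a library was scaled. Homer3 made up 74.8%, 76.1% and 60.8% of the summed Homer FPKM in WT at 1 month and 29.3%, 36.8% and 62.1% in KO. The groups overlapped in the library labelled KO replicate 3, and the two-sided exact permutation test gave p = 0.2. Homer1 made up 21.1%, 20.3% and 28.0% in WT and 56.0%, 48.9% and 29.0% in KO, and these groups did not overlap. Its exact permutation p was 0.1, the smallest that 3 against 3 libraries allow, and 0.18 after Benjamini-Hochberg adjustment over 9 shares. The summed Homer FPKM was 96.6, 94.8 and 89.3 in WT and 30.5, 32.8 and 59.6 in KO, so the larger share of Homer1 in KO went with a lower total. In the 4-month WT library Homer3 made up 74.9%, and in the library labelled KO at 4 months 0.895%, with Homer1 at 89.1%.

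**Figure D4:**
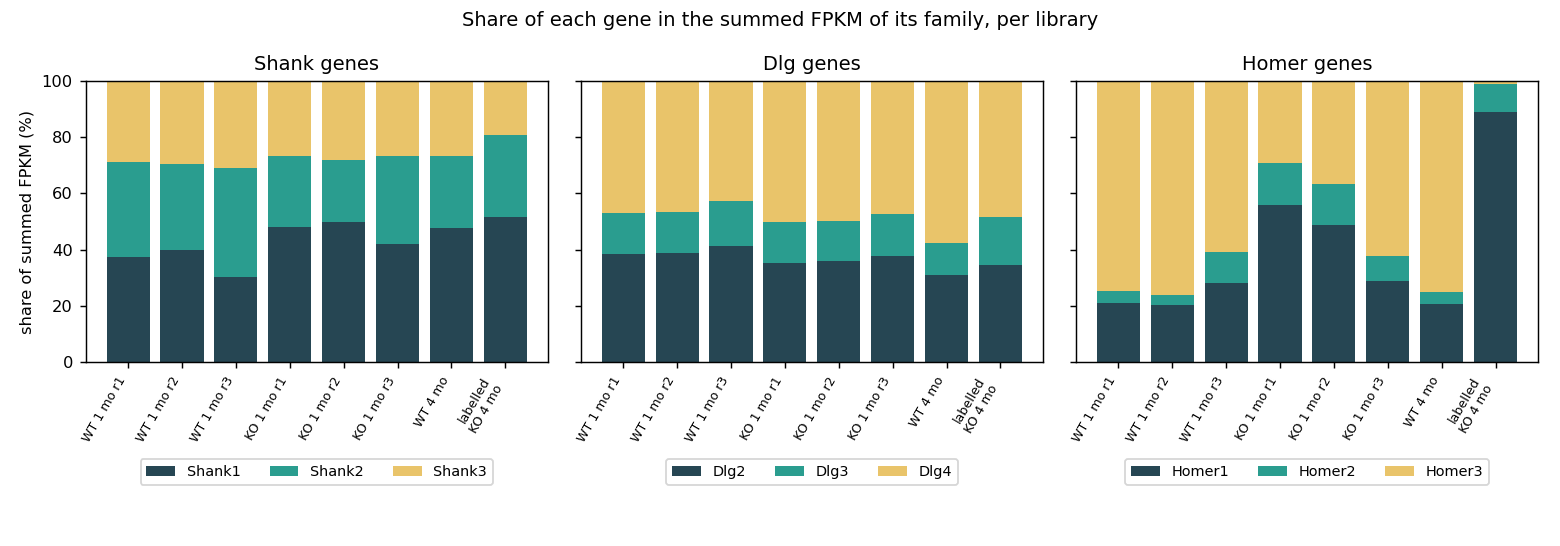
Stacked bars give the share of each gene in the summed FPKM of its family (y axis, percent) in each of the 8 libraries (x axis), for the Shank, Dlg and Homer families. The Homer bars differ most between libraries, from a Homer3 share of 76.1% in WT replicate 2 to 0.895% in the library labelled KO at 4 months, and the Dlg bars keep a Dlg4 share between 42.6% and 57.8%.

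Shank1 took a larger share of the Shank sum in KO, 48.2%, 49.9% and 42.0% against 37.3%, 40.0% and 30.4% in WT, with no overlap (exact permutation p = 0.1). Shank2 took a smaller share, 26.2% ± 4.64 against 34.3% ± 4.17 (SD, n = 3 each), and these groups overlapped (exact permutation p = 0.2). The share of Shank3 was 27.1% ± 0.813 in KO and 29.8% ± 1.08 in WT (exact permutation p = 0.1). Within the Dlg sum, Dlg4 held 49.0% ± 1.53 in KO and 45.5% ± 2.48 in WT, and Dlg2 held 36.3% ± 1.44 and 39.6% ± 1.55 (exact permutation p = 0.1 for each). The share of Dlg3 was 14.7% in KO and 15.0% in WT (exact permutation p = 0.9). None of the 9 shares had an adjusted p under 0.05, which this design cannot reach.

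Other genes of the postsynaptic side were described from lists. Of 29 adaptors and signalling partners of the density found in the table, 0 passed in KO against WT at 1 month, and at an unadjusted p under 0.05, 4 were higher and 11 lower, with a list median of -0.18, beside 14% higher, 17.2% lower and a median of -0.04 over all genes. Of 15 glutamate receptor genes and partners, 0 passed, 2 were higher and 9 lower at the unadjusted level, with a median of -0.42. These counts of 0 rested on the library labelled KO replicate 3: without it 13 of the 29 adaptors passed (4 higher, 9 lower) and 12 of the 15 receptor genes (2 higher, 10 lower), where 34.1% of all genes passed. Gria4, an AMPA receptor subunit gene, had 151.5, 139.5 and 146.0 FPKM in WT and 80.4, 80.0 and 115.6 in KO, lower in every KO library, with a log2 fold change of -0.68 (limma adjusted p 0.0761). Grin2a, an NMDA receptor subunit gene, had 18.8, 18.9 and 21.7 FPKM in WT and 13.7, 14.9 and 14.8 in KO, again without overlap, with -0.42 (adjusted p 0.0784 by limma).

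Among the adaptors, Dlgap2, which links Shank to Dlg proteins, had 2.82, 2.09 and 2.36 FPKM in WT and 5.96, 5.62 and 3.90 in KO, higher in every KO library, with a log2 fold change of 0.84 (limma adjusted p 0.0648). Begain at 0.76 and Grip1 at 0.73 were on the same side, and Arhgef7, a Shank-binding exchange factor, was at -1.21 (limma adjusted p 0.0692, 0.0781 and 0.0756). Of 6 adhesion genes, 0 passed, and 0 were higher and 2 lower at the unadjusted level. The lowest was Lrrtm3 at -1.18 (limma adjusted p 0.0759), followed by Nlgn2 at -0.33. Of 6 genes of the inhibitory postsynapse, 0 passed, with 1 higher and 4 lower at the unadjusted level, beside the same 14% and 17.2% of all genes. Without the library labelled KO replicate 3, 3 of the 6 adhesion genes and 4 of the 6 inhibitory genes passed, beside 34.1% of all genes. The glycine receptor gene Glra1 was the higher one, with 15.0, 13.5 and 32.6 FPKM in WT and 87.3, 88.4 and 55.9 in KO (log2 fold change 1.95, limma adjusted p 0.064). The GABA receptor gene Gabrb2 stood at -0.99 (adjusted p 0.0648 by limma). The granule, Purkinje, brainstem and microglia marker medians given above also differed between the genotypes at 1 month, and their part in these values was not tested.

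With age in WT, 4 of the 56 genes of these lists passed by limma, beside 10.3% of all genes. The calls rest on a fit whose count over all genes fell from 1534 to 18 with the 4 WT libraries only, and to between 9 and 29 without replicate 1 or 2 of either genotype. Iqsec1, an exchange factor for ARF6 as Psd is, rose with a log2 fold change of 0.97 (adjusted p 0.0325), Nlgn2 rose by 0.83 (0.0449) and the NMDA receptor subunit gene Grin2d by 1.18 (0.0454). Gphn, the gephyrin gene of inhibitory synapses, fell by 0.60 (adjusted p 0.0409 by limma). In the library labelled KO at 4 months, 11 of 29 adaptors were at least 1 log2 unit above the 4-month WT library and 2 below, beside 9.57% and 11.2% of all genes. Camk2a, the kinase of forebrain excitatory synapses, had 385.1 FPKM against 16.1 in WT (4.50), Kalrn 222.3 against 17.8 (3.57) and Lrrc7 60.5 against 3.82 (3.67). Of the 15 receptor genes 4 were higher and 5 lower, with Grin2b at 4.28, Grm5 at 3.28 and Grin2c at -3.23. Of the 6 adhesion genes 3 were higher and 0 lower, beside the same shares of all genes.

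The profiles of the members across the 8 libraries were set beside those of the same 7315 genes, as a description without a test, since 8 points share libraries and a single library can carry a correlation. The profile most like that of Homer3 was Slc1a6, the glutamate transporter of Purkinje cells, with a Pearson r of 0.997 on log2(FPKM + 1), and without the library labelled KO at 4 months Cdh15 was among the 2 most alike, with 0.996 over 7 libraries. Dlg4 and Psd were each other's most alike gene with r of 0.996 over 8 libraries, and had 0.99 over 7. Shank2 and Shank3 had 0.96 over 8 and 0.98 over 7 libraries. Homer1 and Homer3 had -0.66 over 8 libraries and 0.73 over 7, so their opposite course rested on the library labelled KO at 4 months. Homer1 was most like Opcml with r of 0.993 and Dlg3 most like R3hdm1 with 0.996 over 8 libraries, and Shank1 most like Tyro3 with 0.984.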

How the data were processed

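RNA was measured in 8 libraries from mouse cerebellum; the 29 other samples of the series (chromatin immunoprecipitation and inputs) were not analysed here. Per the labels, total RNA was prepared with Trizol and sequenced on an Illumina HiSeq. The submitters' processing notes list TopHat2 2.1.0, Bowtie 1.1.2, Cuffdiff and genome build mm9. FPKM values were deposited by the authors as 1 table; annotation, strand setting and any further scaling are not given in the sources here, so related or overlapping genes could share reads. A repeated line of older column names was removed (1), and 0 columns were left unmapped. Absolute depth is unknown; depth relative to WT replicate 1, from the steps of values under 0.3 FPKM, ran from 0.732 to 1.20. FPKM totals ran from 381845 to 630615, with 11.0% to 48.2% in symbols of small RNAs, and 19570 to 20433 genes were above 0.

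Values were taken as log2(FPKM + 1) and those averaging 1 FPKM or more were tested with limma 3.58.1 in R 4.3.3, with Benjamini-Hochberg adjustment over all genes. KO was compared with WT in the 6 libraries of 1 month. Age was a contrast of 4 group means over 8 libraries. At 4 months KO and WT had 1 library each and no test. The limma steps were checked on simulated data with independent noise of capped spread and no deviating library. That check therefore does not cover the spread seen in the 1-month KO group. Members and lists were chosen with earlier results of these data known. Named genes were the 10 members, up to 4 genes of each list with the smallest p (at 4 months the largest difference), the genes most alike in profile, and Mll2; Wbp7, Gfap and the cell type markers were named beside this rule, after their values were seen. Ppp1r17 was looked for by symbol and not matched. Some genes that this rule names are not reported here. Alternatives were other pseudocounts, filters, scalings and models, and leaving out libraries. RefSeq tables of GRCm38.p6 served for names and promoter windows. Replicate numbers were not used to pair the samples in the reported tests.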

Additional observations from a re-analysis of the deposited data

Results flagged for a closer look

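In 3 genes every KO library at 1 month lay below every WT library, while the library labelled KO at 4 months lay above the WT library of that age. The log2 difference between KO and WT at 4 months exceeded that at 1 month by 1.23 for Dlg2, 1.54 for Dlg3 and 2.84 for Homer1. The difference between the ages was not tested, since 1 library of each genotype stands for 4 months. That library had the forebrain and cerebellar marker levels given in the results, and tissue, age and genotype cannot be told apart in it. Groups of 3 or fewer libraries were not searched for single outlying values.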

How the results depend on the processing

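In KO against WT at 1 month, 3 member values changed sign under 17 alternatives, all of Homer2: its -0.10 ranged from -0.35 to 0.31 when 1 library was left out (0.31 without WT replicate 3), and was 0.22 with array weights and 0.25 without replicate 3 of both genotypes. The count of members past the threshold was 0 in the reported setting, 0 to 4 when 1 library was left out, 9 with array weights and 7 without replicate 3 of both genotypes (an alternative chosen after seeing the data). With the replicate number as a block it was 0. Deviations of same-numbered WT and KO libraries correlated at 0.17, 0.03 and 0.04, and those of differently numbered ones at -0.145 to 0.080. Small RNA symbols held 31.9% and 24.4% of FPKM in WT and KO replicate 1. They held 44.7% and 43.5% in replicate 2, and 36.2% and 36.8% in replicate 3. Whether a number marks a shared batch was not tested. Over all genes the count was 4, and 0 under the block, 5037 without KO replicate 3, 8095 with array weights, 6997 without replicate 3 of both genotypes, and 1 to 42 in the other alternatives.

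For age the member count of 1 became 2 with a 5 FPKM filter, with libraries shifted to 1 median, with a limma trend and with additive age and genotype, 3 with quantile normalization, 0 with the 4 WT libraries only, and 0 to 5 when 1 library was left out. Signs turned for Homer2 at 0.00 (quantile), 0.05 (median shift) and 0.69 (additive) and with 1 library left out (-0.32 to 0.34), for Homer1 with 1 left out (-0.02 to 0.16), and, in the additive model, for Dlg2 at 0.37, Dlg3 at 0.48 and Homer3 at -1.29. Over all genes the count of 1534 became 295 in the additive model, 18 with WT only, and 9 to 3704 when 1 library was left out. The difference in the Dlg3 share turned to 0.253 points without WT replicate 3 (-0.573 to 0.253 with 1 library left out). The cause was not tested for any of these. Without known depth no counting error could be set on FPKM, and 1 library at 4 months limits what its values can show.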
